A study of Sus scrofa with 2 samples.

Results

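Pig chromosomes 15 and 16 were examined for DNA copy number in an angiosarcoma-like liver tumor and in control liver tissue. All array probes that the design places on these chromosomes were taken, which were 10353 probes on chromosome 15 and 6400 on chromosome 16, of 168312 on the autosomes. They fell into 135 and 78 windows of 1 Mb, out of 2145 autosomal windows. The tumor came from a female pig (Sus scrofa) that, per the labels, received a single intraperitoneal dose of 200 mg/kg of the liver carcinogen diethylnitrosamine (DENA) and had its liver resected 10 months later. The control was non-tumor liver of a female pig. Its treatment entry in the labels is the same DENA injection as that of the tumor, and the labels do not say whether the control animal itself was injected. Both DNAs were labelled with Cy3 and set against Cy5-labelled reference liver DNA of a female pig. Whether both arrays used the same reference DNA is not stated. Neither the breed nor the age of the animals is given in the labels. The tumor tissue was paraffin-embedded and micro-dissected, its share of tumor cells is not given, and a change in few cells therefore cannot be told apart from a smaller change in many. There was 1 array for each tissue and no replicate, so no test between the tissues was possible and each error is an SD over probes or over windows of 1 array. The arrays were on different slides, and an effect of the slide cannot be told apart from one of the tissue.

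In array-based comparative genomic hybridization (aCGH) each probe reports the ratio of tissue DNA to reference DNA at 1 position. With 2 copies as the normal state, loss of 1 copy in every cell gives a log2 ratio of -1 and gain of 1 copy gives 0.58. An acrocentric chromosome carries its centromere close to one end, so that nearly all of its DNA forms a single long arm. A whole chromosome that missegregates, of this or another shape, is gained or lost as 1 block. In the pig karyotype the chromosomes from 13 to 18 are acrocentric. By comparative maps, pig chromosome 15 shares much of its gene content with the long arm of human chromosome 2, and pig chromosome 16 with human chromosome 5. Hepatic angiosarcoma arises from the endothelial cells that line liver vessels, and cancers often lose or gain chromosome arms. The array files do not mark the centromere, so the acrocentric shape is background here and was not measured. They pair no probe with a gene and name no genome build for the positions, so all positions are those of the array design and no gene was placed on them.

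The probes were 45 bases long, with a median distance of 10175 bp between neighbours on both chromosomes. They spanned 134.5 Mb on chromosome 15, from position 16651 to 134533895, and 77.4 Mb on chromosome 16, from position 1 to 77427170. A window held between 49 and 97 probes on chromosome 15 (median 78) and between 39 and 110 on chromosome 16 (median 84.5). The widest distance between the starts of neighbouring probes was 314500 bp on chromosome 15 and 342250 bp on chromosome 16. No probe lay between positions 11111145 and 11425601 on chromosome 15 and between 29455745 and 29797951 on chromosome 16. No probe on either chromosome was saturated, and 1 spot of chromosome 15 on the control array was left out for an outlier flag. The tissue signal was well above background for 75.8% of the chromosome 15 probes on the tumor array and for 70.9% on the control array. On chromosome 16 these shares were 77.4% and 73.2%, against 79.7% and 76.2% over all probes of each array. The derivative log2 ratio spread, a measure of noise taken from neighbouring probes of the whole array, was 0.40 for the tumor and 0.42 for the control tissue. From the first to the last probe no distance between neighbouring probes was longer than those given above, and a window median rested on at least 39 probes. Because the build of the positions is not named, the far end of a chromosome means here the end of its probes. In the RefSeq gene table of the pig assembly Sscrofa11.1 both chromosomes have genes at higher positions than the last probe, and whether the probes stop short of the chromosome end or the positions differ between builds cannot be told apart.

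Neither chromosome was shifted as a whole by an amount near that of a lost or gained copy. On chromosome 15 the median of the window log2 ratios of tissue over reference was 0.12 on the tumor array (SD 0.17 over 135 windows) and 0.033 on the control array (SD 0.09). On chromosome 16 it was 0.074 on the tumor array (SD 0.17 over 78 windows) and 0.028 on the control array (SD 0.091). Both medians were above 0 on both arrays in this setting. In the control tissue that of chromosome 15 was -0.0037 with a trend on probe brightness taken off, and that of chromosome 16 was 0 with the deposited log ratio. Over all 2145 autosomal windows the median was 0.037 (SD 0.20) on the tumor array and 0.0091 (SD 0.095) on the control array. Ordered by window median among 19 chromosomes, chromosome 15 was in place 2 on the tumor array, after chromosome 8 with 0.14, and in place 4 on the control array. Chromosome 16 was in place 7 on the tumor array and in place 5 on the control array. With the brightness trend taken off, the tumor medians of the 19 chromosomes ran only from -0.038 to 0.022. Chromosome 15, with 0.0090, was then in place 3 on the tumor array and in place 14 on the control array. Chromosome 16 was then in places 8 and 6. With the ratio formed as reference over tissue, the direction of each of these values turns.

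**Figure D1:**
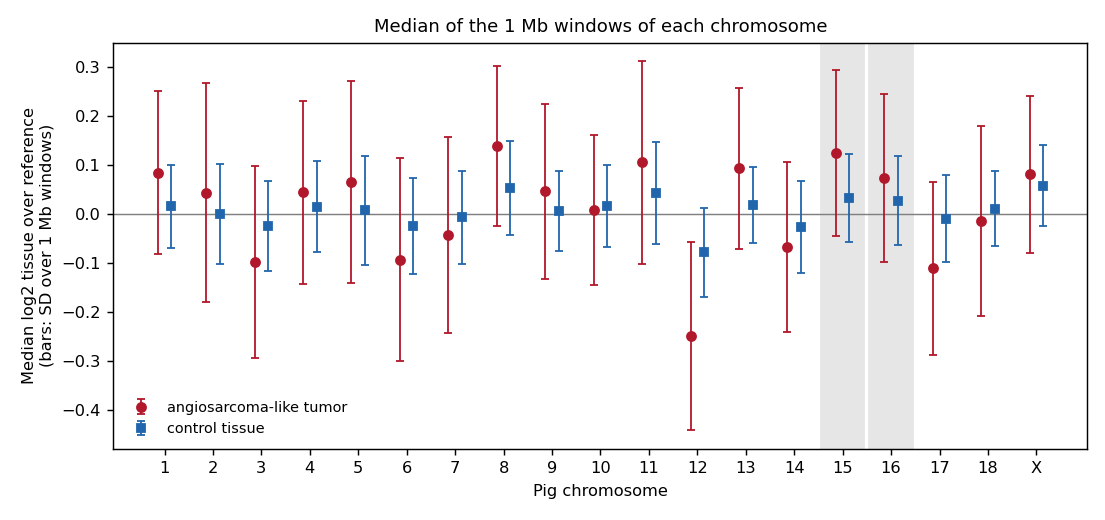
The vertical axis gives the median log2 ratio of tissue over reference over the 1 Mb windows of each pig chromosome, for the tumor array (circles) and the control array (squares), with bars for the SD over windows and not over animals. Chromosomes 15 and 16 are shaded, and their tumor medians of 0.12 and 0.074 lie above 0, with bars that reach below 0.

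The spread of the window medians along both chromosomes was wider on the tumor array, though on chromosome 15 by little once a trend on probe brightness was taken off (SD 0.065 against 0.061 in the control tissue). Window medians of the tumor ran from -0.42 to 0.37 on chromosome 15 and from -0.44 to 0.39 on chromosome 16. In control tissue they ran from -0.20 to 0.25 and from -0.17 to 0.29. No window on either chromosome reached -1 or 0.58 on either array. A limit of 0.25 in size was set for calling a window high or low. On chromosome 15 of the tumor array 20 windows (14.8%) were at or above 0.25, where 9.46% of all autosomal windows were, and 7 windows (5.19%) were at or below -0.25, where 12.1% were. Chromosome 16 of the tumor had 9 high windows (11.5%) and 4 low windows (5.13%). High windows outnumbered low ones on both chromosomes in this setting, whereas low windows were the more frequent over all autosomes of the tumor. Chromosomes 1, 4, 8, 9, 11 and 13 of the tumor also had more high than low windows, with 16 and 7 on chromosome 13. The order turned with normexp background correction, to 7 high and 12 low windows on chromosome 15 and 6 high and 8 low on chromosome 16. It also turned at a limit of 0.4, with 0 high windows on both and 2 and 1 low ones, and on chromosome 15 with windows of 5 Mb, with 1 high and 2 low. On the control array no window of chromosome 15 passed either limit, and on chromosome 16 there were 2 high windows and no low one, where 0.699% of the autosomal windows were high and 0.326% low. These control counts also moved with the setting. With normexp there were 3 high and 8 low control windows on chromosome 15 and 4 high and 4 low on chromosome 16. With arrays centred on the mode there were 5 and 4 high ones and no low one. The autosomal shares given here belong to the first setting only and are not set against the counts of other settings. Of the windows of the tumor, 101 of 135 on chromosome 15 and 53 of 78 on chromosome 16 were above 0 (autosomes 56.1%). Of those of the control tissue 88 and 52 were (autosomes 53.8%). With the brightness trend taken off, the window medians were 0.0090 and 0.0028 in the tumor and -0.0037 and 0.011 in the control tissue. The control windows of chromosome 15 were then no longer mostly above 0.

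Along chromosome 15, the tumor started above 0, stayed mostly above 0 and fell below 0 near the far end. The first 5 windows had a median of 0.27 in the tumor (range 0.15 to 0.36) and of 0.071 in the control tissue (range 0.028 to 0.12). All 5 were above 0 on both arrays. The 125 windows between the first and last 5 had a median of 0.12 in the tumor and 0.034 in the control tissue, and the last 5 had a median of -0.22 in the tumor and -0.15 in the control tissue. Of these last 5 windows, 4 were below 0 in the tumor and 5 in the control tissue. The exception in the tumor was the window from 133 to 134 Mb, with 0.036. The 3 highest windows of the tumor were those from 38 to 39 Mb with 0.37 (SD 0.62 over 69 probes), from 5 to 6 Mb with 0.37 (SD 0.52 over 81 probes) and from 2 to 3 Mb with 0.36 (SD 0.54 over 86 probes). The control tissue had 0.25, 0.067 and 0.12 there, and the first of these was also its own highest window. Next in the control tissue came the windows from 106 to 107 Mb and from 68 to 69 Mb, both with 0.21, where the tumor had 0.21 and 0.29.

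The lowest windows of chromosome 15 in the tumor were those from 130 to 131 Mb with -0.42 (SD 0.30 over 66 probes), from 131 to 132 Mb with -0.41 (SD 0.35 over 79 probes) and from 28 to 29 Mb with -0.38 (SD 0.33 over 79 probes). In control tissue the same windows had -0.20, -0.15 and -0.20. The first and the last of them were the lowest windows of the control array too, followed by the window from 134 to 135 Mb with -0.17, where the tumor had -0.22. These low windows of the tumor thus lay at the far end and near 28 Mb. The longest run of tumor windows below 0 covered 10 windows from 123 to 133 Mb with a median of -0.23, where the control median was -0.12. In control tissue the longest run below 0 covered 12 windows from 123 to 135 Mb. The longest run of tumor windows above 0 covered 19 windows from 75 to 94 Mb, with a median of 0.22 in the tumor and 0.070 in the control tissue.

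**Figure D2:**
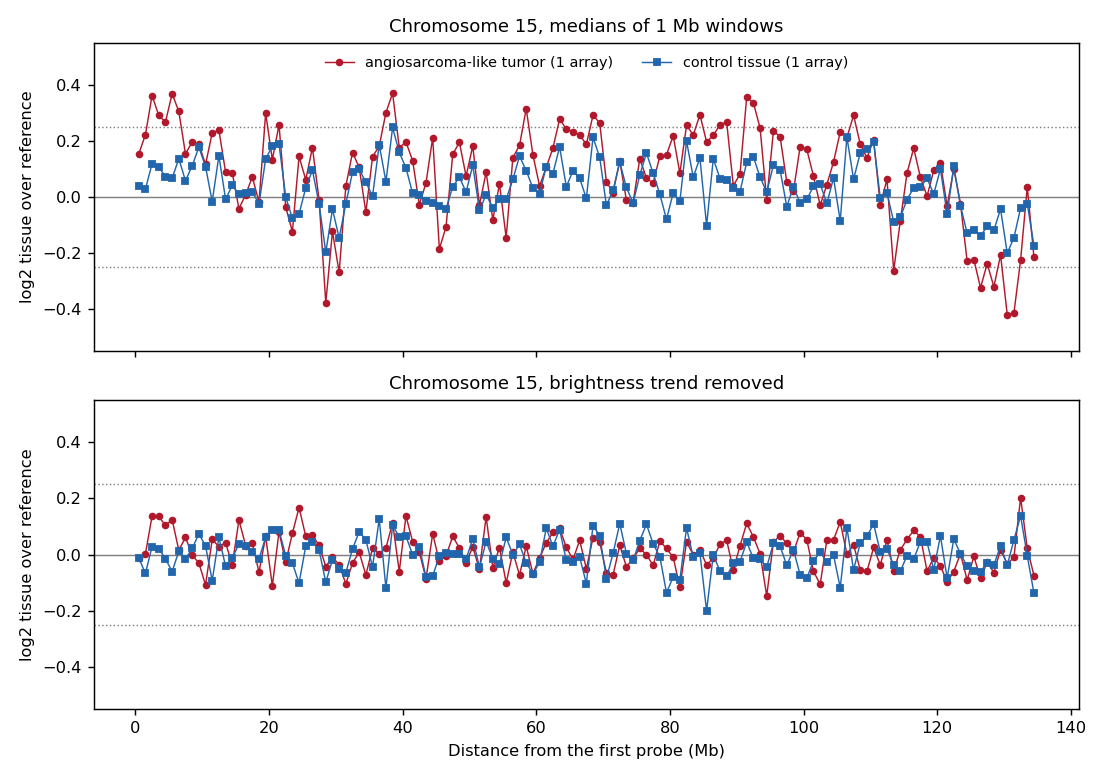
The upper panel gives the median log2 ratio of tissue over reference in each 1 Mb window of chromosome 15 against the distance from the first probe in Mb, for the tumor array (circles) and the control array (squares), with dotted lines at 0.25 and -0.25. The tumor is above 0 over the first 10 Mb, where 5 of 10 windows reach 0.25, and below 0 from 123 to 133 Mb, and the lower panel gives the same windows with the brightness trend of the other autosomes removed, where no tumor window passes 0.25 in size.

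In stretches of 10 Mb, every stretch of chromosome 15 up to 120 Mb had a tumor median above 0. The highest was the first, with 0.24 (SD 0.080 over 10 windows), then the stretch from 60 to 70 Mb with 0.23 and the one from 80 to 90 Mb with 0.22. The control tissue had 0.090, 0.088 and 0.064 there. The lowest of these 12 stretches was the one from 20 to 30 Mb with 0.025 in the tumor (SD 0.19), which held both the window of -0.38 and windows up to 0.26. From 120 to 130 Mb the tumor median was -0.21 and the control median -0.083, with 8 of 10 windows below 0 on each array.

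Chromosome 16 was also lowest at its far end in the tumor, while its start was near the autosomal median. The first 5 windows had a median of 0.062 in the tumor (range -0.055 to 0.19) and 0.020 in the control tissue (range 0.0045 to 0.057). The 68 windows between had 0.092 in the tumor and 0.029 in the control tissue, and the last 5 had -0.27 in the tumor (range -0.44 to -0.033) and -0.044 in the control tissue (range -0.17 to 0.043). At this end all 5 tumor windows were below 0, and 3 of 5 were in the control tissue. The highest tumor windows were those from 28 to 29 Mb with 0.39 (SD 0.51 over 101 probes), from 10 to 11 Mb with 0.30 (SD 0.67 over 94 probes) and from 14 to 15 Mb with 0.30 (SD 0.68 over 86 probes), and the control tissue had 0.14, 0.17 and 0.19 there. In control tissue the highest windows were those from 12 to 13 Mb with 0.29, from 40 to 41 Mb with 0.26 and from 11 to 12 Mb with 0.21, where the tumor had 0.23, 0.20 and 0.26. The control tissue was thus as high as the tumor or higher in parts of the stretch from 10 to 15 Mb.

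The lowest tumor windows of chromosome 16 were those from 76 to 77 Mb with -0.44 (SD 0.37 over 99 probes), from 75 to 76 Mb with -0.39 (SD 0.41 over 63 probes) and from 72 to 73 Mb with -0.36 (SD 0.41 over 79 probes). The control tissue had -0.099, -0.17 and -0.16 there. Its own lowest windows were those from 75 to 76 Mb, from 72 to 73 Mb and from 48 to 49 Mb, the last with -0.11, where the tumor had -0.24. The very last window, from 77 to 78 Mb, was near 0 on both arrays, with -0.033 in the tumor (SD 0.30 over 39 probes) and 0.043 in the control tissue. The longest run of tumor windows below 0 took in the last 10 windows from 68 to 78 Mb, with a median of -0.14 in the tumor and -0.0087 in the control tissue. Above 0, the longest tumor run covered 13 windows from 4 to 17 Mb with a median of 0.19, where the control median was 0.14. In control tissue 22 windows from 0 to 22 Mb were above 0 without a break, with a median of 0.046.

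**Figure D3:**
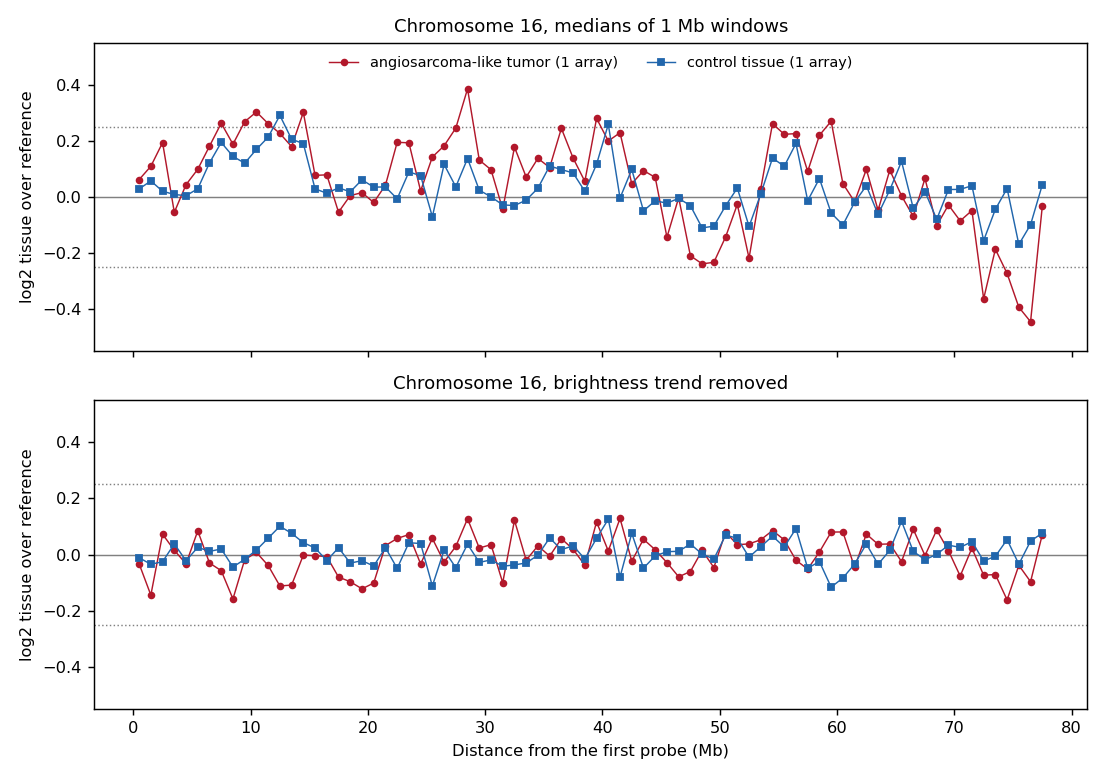
The upper panel gives the median log2 ratio of tissue over reference in each 1 Mb window of chromosome 16 against the distance from the first probe in Mb, for the tumor array (circles) and the control array (squares), with dotted lines at 0.25 and -0.25. From 70 Mb on the tumor windows fall to -0.44 and the control windows stay between -0.17 and 0.043, and in the lower panel, with the brightness trend of the other autosomes removed, no tumor window passes 0.25 in size.

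In stretches of 10 Mb, the tumor medians of chromosome 16 lay between 0.12 and 0.16 over the first 40 Mb. They were 0.022 from 40 to 50 Mb, 0.16 from 50 to 60 Mb and -0.0066 from 60 to 70 Mb, and the 8 windows from 70 to 78 Mb had -0.23 (SD 0.16). The control medians of all 8 stretches lay between -0.018 and 0.12, the highest from 10 to 20 Mb. In the last of them the control median was -0.0085, although the lowest control windows of the chromosome, with -0.17 and -0.16, lay there. With the brightness trend taken off, this stretch had a median of -0.073 in the tumor and 0.036 in the control tissue.

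A low far end was not seen on these chromosomes alone. Of the other acrocentric autosomes, the last 5 windows had a tumor median of -0.21 on chromosome 13, -0.40 on chromosome 14 and -0.40 on chromosome 17, with -0.043, -0.10 and -0.056 in the control tissue. On chromosome 18 the last 5 windows had -0.013 in the tumor, and the first 5 had -0.25. The first 5 windows of chromosomes 13 and 17 had 0.092 and 0.14 in the tumor, and those of chromosome 14 had -0.10. No test of a difference between chromosomes was possible on 1 array.

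When the control ratio was subtracted probe by probe, the lowest window of each chromosome again lay at its far end in the first setting. The difference of tumor minus control had a median of 0.042 over the windows of chromosome 15 (SD 0.10) and of 0.025 over those of chromosome 16 (SD 0.11), against -0.0053 (SD 0.12) over all autosomal windows. Both medians turned to -0.015 and -0.032 when the arrays were centred on the mode of their ratios, and to -0.014 and -0.0089 with the brightness trend taken off. With normexp the medians were 0.0052 and 0.00052, and the SDs were 0.055 and 0.066. The SDs were 0.067 and 0.086 with the brightness trend taken off. A window of the difference at or above 0.25 occurred 3 times on chromosome 15 and 1 time on chromosome 16 (autosomes 0.932%), and at or below -0.25 it occurred 1 time and 2 times (autosomes 1.82%). The largest differences on chromosome 15 were 0.29 from 11 to 12 Mb, 0.27 from 6 to 7 Mb and 0.25 from 5 to 6 Mb. The first of these windows had 0.23 in the tumor and -0.017 in the control tissue (49 probes). The most negative differences there were -0.32 from 131 to 132 Mb, -0.21 from 130 to 131 Mb and -0.19 from 128 to 129 Mb, and all 10 windows from 123 to 133 Mb were below 0. On chromosome 16 the largest differences were 0.28 from 59 to 60 Mb, 0.21 from 41 to 42 Mb and 0.21 from 22 to 23 Mb. The most negative there were -0.32 from 76 to 77 Mb, -0.26 from 74 to 75 Mb and -0.19 from 52 to 53 Mb, and all 10 windows from 68 to 78 Mb were below 0. With a trend on probe brightness, learned on the other autosomes, taken off both arrays, 5 of the 10 windows of chromosome 15 were below 0 and their median was -0.00049, where it had been -0.15. Of the 10 windows of chromosome 16, 7 were then below 0, with a median of -0.044 where it had been -0.14. On chromosome 15 the differences then ran from -0.18, from 20 to 21 Mb, to 0.17. On chromosome 16 they ran from -0.24 to 0.19, with -0.24 both from 74 to 75 Mb and from 12 to 13 Mb. None then reached 0.25 in size.

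Altered intervals were then called from the single probes. As in the ADM-1 algorithm, an interval was scored by summing its log2 ratios and dividing by the array noise and by the root of its probe number. An interval needed 3 probes or more, a score of 6 or more and a mean of 0.25 or more in size, and this limit on the mean was applied while searching. In the tumor 12 intervals over 35.5 Mb were called on chromosome 15, of which 10 were gains and 2 losses. On chromosome 16 there were 9 intervals over 21.5 Mb, of which 7 were gains and 2 losses. With normexp gains did not outnumber losses, with 9 gains and 9 losses on chromosome 15 and 5 gains and 6 losses on chromosome 16. The called length of the tumor depended on the setting. It was 65.4 Mb on chromosome 15 and 34.0 Mb on chromosome 16 with only probes well above background, 10.7 Mb and 7.09 Mb when interval means had to reach 0.4 in size, and 13.9 Mb and 10.8 Mb with a score of at least 12. Gains held 20.6% of the chromosome 15 probes and 20.2% of the chromosome 16 probes in the tumor (autosomes 14.0%), and losses held 6.28% and 8.27% (autosomes 18.5%). In control tissue 15 intervals over 10.9 Mb were called on chromosome 15 and 6 over 11.8 Mb on chromosome 16, all of them gains. The called length of the control tissue was 2.30 Mb and 3.68 Mb with the deposited log ratio, 34.3 Mb and 17.9 Mb with centring on the mode, 0.175 Mb and 3.87 Mb with only probes well above background and 2.17 Mb and 2.60 Mb when interval means had to reach 0.4 in size. With normexp the control tissue instead had 1 gain and 6 losses on chromosome 15 and 4 gains and 7 losses on chromosome 16, and with only probes well above background 2 gains were left on each. In the first setting the control gains held 8.44% and 15.8% of the probes (autosomes 5.28%), and no probe was in a loss (autosomes 0.298%). With the limit on the mean applied after the search instead, 1 loss and 0 gains were left on each chromosome of the tumor, over 7.88 Mb and 5.46 Mb, and 1 gain on each in the control tissue, over 0.326 Mb and 0.122 Mb.

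**Figure D4:**
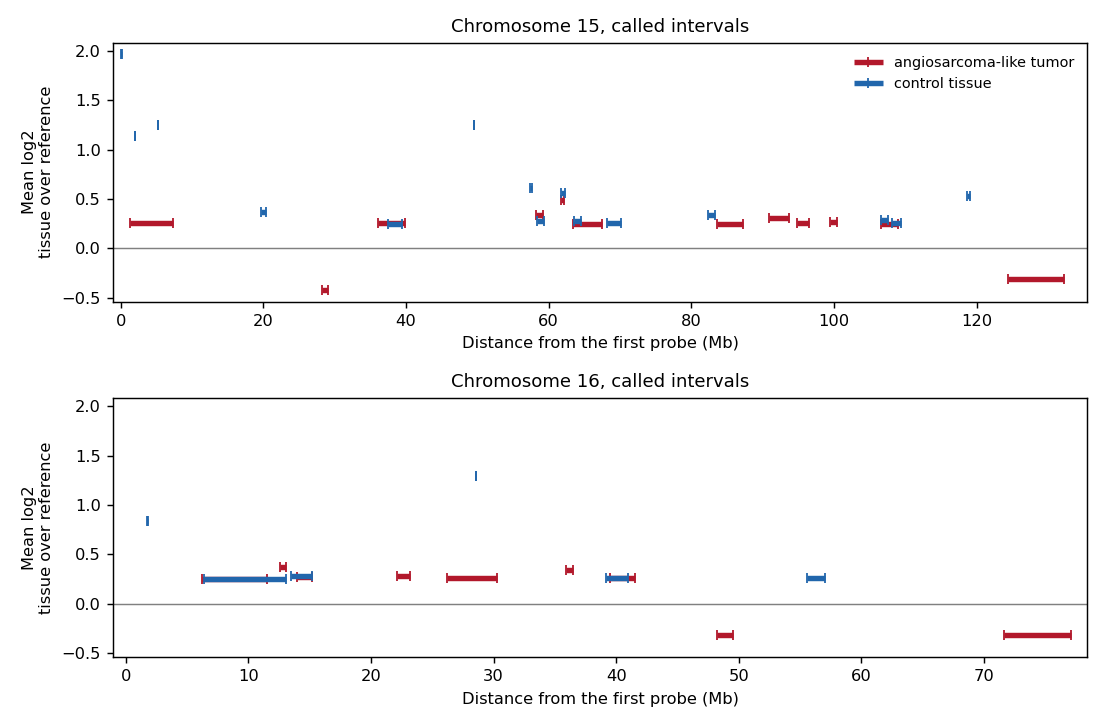
Each horizontal bar is an interval called on the tumor array or on the control array, drawn from its first to its last probe as distance from the first probe of the chromosome in Mb, at the mean log2 ratio of tissue over reference of its probes. The 4 losses lie below 0 and belong to the tumor array, and the control intervals with a mean above 1 hold 3 to 5 probes each.

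The highest score on either chromosome in the tumor, 18.5, belonged to a loss near the end of chromosome 15, from 124436551 to 132312970. Its 578 probes had a mean of -0.31 (SD 0.36) in the tumor and of -0.078 (SD 0.37) in the control tissue. On chromosome 16 the highest tumor score, 16.6, belonged to a loss from 71625526 to 77081220, whose 430 probes had a mean of -0.32 (SD 0.43) in the tumor and of -0.021 (SD 0.46) in the control tissue. Single probes near the tumor means of these intervals show the signals behind the tumor values. Probe GT_Pig_chr15_69287, at 130470326 to 130470370, had a background-subtracted signal of 208 for the tumor and 487 for its reference, a centred log2 ratio of -0.31. On the control array the same probe gave 82.8 for the tissue and 198 for its reference, a log2 ratio of -0.28. This ratio was lower than the control mean of the interval, -0.078. Probe GT_Pig_chr16_38258, at 73497726 to 73497770, gave 92.4 against 214 in the tumor (log2 ratio -0.32) and 84.6 against 181 in the control tissue (log2 ratio -0.073). The smaller losses of the tumor lay between 28190301 and 29155120 on chromosome 15 and between 48240601 and 49515295 on chromosome 16. The first had a mean of -0.42 over 72 probes (SD 0.38) against -0.18 in the control tissue, and the other of -0.32 over 99 probes (SD 0.35) against -0.14.

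The means of the tumor gains ran from 0.25 to 0.50 on chromosome 15 and from 0.25 to 0.38 on chromosome 16. The longest on chromosome 15 ran from 1347726 to 7375995 and had a score of 14.2, with a mean of 0.25 over 504 probes (SD 0.54) against 0.14 (SD 0.61) in the control tissue. The next by score on this chromosome (11.4) lay between 90951551 and 93711795, where 217 probes had a mean of 0.31 (SD 0.54) against 0.17. On chromosome 16 the longest gain ran from 6227101 to 11538495 and had a score of 13.7, with a mean of 0.25 over 472 probes (SD 0.62) in the tumor and of 0.22 (SD 0.65) in the control tissue. Next by score (11.9) came the stretch between 26223751 and 30287320, whose 338 probes had a mean of 0.26 (SD 0.55) against 0.11. The gain with the largest mean lay on chromosome 15 from 61728026 to 62185020, with 0.50 over 25 probes (SD 0.54), and the control tissue had 0.51 there. The gains thus ranged from ones seen in the tumor with a lower control value to ones of the same size on both arrays.

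The best scoring interval of the control tissue, at 14.6, was on chromosome 16 between 6398226 and 13079545. Its 591 probes had a mean of 0.25 (SD 0.66) in the control tissue and 0.24 (SD 0.62) in the tumor. Its probe GT_Pig_chr16_6111, at 11155501 to 11155545, gave 15.3 for the control tissue, which was not well above background, and 26.2 for its reference, and in the tumor 29.1 against 40.6. Of the probes of this interval 46.2% had a tissue signal well above background on the control array. A second control gain on chromosome 16 ran from 13493901 to 15213520, with a mean of 0.28 over 148 probes against 0.22 in the tumor. The longest control gain on chromosome 15 ran from 68168801 to 70116895, with a mean of 0.26 over 156 probes (SD 0.62) against 0.16 in the tumor. A further control gain, on chromosome 15 from 61781676 to 62273820, had a mean of 0.56 over 28 probes (SD 0.63) against 0.40 in the tumor. The highest control score on chromosome 15, 8.07, rested on 3 probes from 129501 to 148970, with a mean of 1.97 (SD 1.69) in the control tissue and 0.85 in the tumor. Its middle probe in value, GT_Pig_chr15_68, was not well above background in any channel of the arrays.

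A short control gain near the start of chromosome 16 (1709401 to 1831545) averaged 0.83 over its 14 probes (SD 1.20), and the tumor averaged -0.076 there. Its first probe, GT_Pig_chr16_911, had the highest ratio of all probes on both chromosomes in control tissue. There the control tissue gave a signal of 21.6 and its reference -0.15, which was not well above background. With the reference set to the lowest signal that was well above background on the array, the tissue was 2.49-fold above it. A signal that was not well above background can exceed that lowest value, so this fold is not a strict lower bound. In the tumor both signals of the probe were not well above background. Within the interval the tissue signal of 7 of 14 probes was well above background.

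The other extreme probes were of the same dim kind. The highest ratio in the tumor belonged to GT_Pig_chr15_23767 at 44458276 to 44458320, with 37.2 for the tumor and 7.82 for its reference, which was not well above background. With the dim channel set in the same way, and with the same limit, the tumor signal was 3.56-fold above the reference. The lowest in the tumor belonged to GT_Pig_chr15_2082 at 3978426 to 3978470, where the tumor gave 3.11, not well above background, and its reference 51.2. Set in this way the tumor was 1.32-fold below. In control tissue the lowest was GT_Pig_chr15_64523 at 121990851 to 121990895, with 0.52 for the tissue, not well above background, and 56.7 for its reference. Set in this way the tissue was 1.45-fold below.

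The window ratios moved with the brightness of the probes. Across the 135 windows of chromosome 15, the tumor ratio had a Pearson correlation of -0.88 with the log2 reference signal of the control array, and across the 78 windows of chromosome 16 of -0.84. The control ratio had correlations of -0.71 and -0.83 with the reference signal of the tumor array. These windows share their array and their probes, neighbouring windows are not independent, and probe sequence and base composition were not used here. Both correlations were negative on each of the 19 chromosomes. They ran from -0.94 on chromosome 6 to -0.78 on chromosome 10 for the tumor ratio. For the control ratio they ran from -0.84 on chromosome 12 to -0.65 on chromosome 18. The reference was brightest at the low ends. Its median log2 signal on the control array was 10.7 in the last 5 windows of chromosome 15 and 10.3 in those of chromosome 16, against 8.93 and 9.13 over the windows of the whole chromosomes. In the first 5 windows of chromosome 15 it was 8.52. By this signal chromosome 15 was in place 18 of the 19 chromosomes from the brightest, before chromosome 8 with 8.77, and chromosome 16 was in place 13. The tumor minus control difference also fell with the reference signal of the control array, with correlations of -0.74 on chromosome 15 and -0.57 on chromosome 16.

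**Figure D5:**
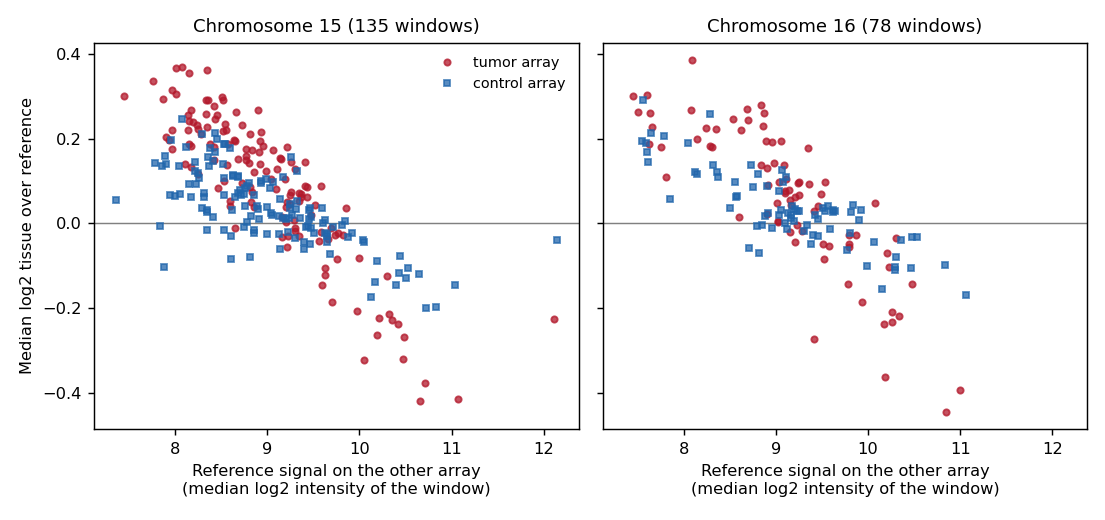
Each point is a 1 Mb window of chromosome 15 (left) or 16 (right), with its median log2 ratio of tissue over reference on the vertical axis and the median log2 reference signal of the same window on the other array on the horizontal axis. Windows of bright probes have low ratios on both arrays, with correlations of -0.88 and -0.84 on the tumor array (circles) and -0.71 and -0.83 on the control array (squares).

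A trend of the ratio on local brightness was learned on the other autosomes and taken off, with brightness taken around each probe (250 kb to either side) as the mean log2 signal of the reference on the other array. The SD over tumor windows then fell from 0.17 to 0.065 on chromosome 15 and from 0.17 to 0.069 on chromosome 16, and the SD over control windows from 0.09 to 0.061 and from 0.091 to 0.048. After this 0 windows of either chromosome passed 0.25 in either direction. The tumor medians became 0.0090 and 0.0028. The loss near the far end of chromosome 15 was left with a mean of -0.024 and that of chromosome 16 with -0.11. The tumor median of the first 5 windows of chromosome 15 fell from 0.27 to 0.10. It rested on 0.14 from 2 to 3 Mb and on -0.011 and 0.0017 in the first 2 windows, among others. The last 5 windows of chromosome 15 had a tumor median of -0.011, with 0.20 from 132 to 133 Mb. The last 5 windows of chromosome 16 had a tumor median of -0.071 and a control median of 0.048, with -0.16 in the tumor from 74 to 75 Mb. On the tumor array 3 losses and no gain were then called on each chromosome. None of them overlapped the 2 losses called before on that chromosome, and on each chromosome 1 of the 3 lay in a former gain. Those on chromosome 15 covered 0.163 Mb in all, with 3 to 8 probes each, and those on chromosome 16 covered 2.21 Mb. The longest of them ran from 7820876 to 9065045 on chromosome 16, inside the gain called before. It had a mean of -0.26 over 114 probes after the trend was taken off and of 0.058 before. No autosomal share stands beside the interval counts of this setting, and they are not compared with other chromosomes. The part of brightness in the low ratios of the far ends was not tested beyond this 1 trend.

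With the control array subtracted instead, a loss near the far end was called on both chromosomes. On chromosome 15 it ran from 125753751 to 132677420 with a mean difference of -0.25 over 507 probes (SD 0.40). On chromosome 16 it ran from 69600701 to 77081220 with a mean difference of -0.26 over 617 probes (SD 0.55). These losses made up most of the lost length of 7.57 Mb and 7.76 Mb, and the other 9 losses of chromosome 15 and 8 of chromosome 16 held 28 probes or fewer each. The 7 gains of chromosome 15 and 3 of chromosome 16 covered 0.708 Mb and 0.423 Mb. The longest of these gains, on chromosome 16 from 28148676 to 28533520, had a mean difference of 0.46 over 41 probes (SD 0.52), with 0.50 in the tumor and 0.038 in the control tissue. On chromosome 15 the longest ran from 64620501 to 64922095, with a mean difference of 0.63 over 21 probes (SD 0.59), 0.59 in the tumor and -0.036 in the control tissue. After subtraction the called gains were thus much shorter than the 26.6 Mb and 14.8 Mb of gains called on the tumor array itself. No autosomal share stands beside the counts after subtraction, and they are not compared with other chromosomes.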

How the data were processed

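aCGH was done on 1 tumor and 1 control DNA. Spots were read by the authors with Agilent Feature Extraction 11.0.1.1. The deposited files give intensity values on a linear scale, as raw median signals, as background-subtracted signals and as processed signals. The processed signals carry a linear dye factor per channel. Their ratios differ from those of the background-subtracted signals by a factor that is not the same for each probe. A log10 ratio (red over green) was deposited as well, and the series table repeats it with a largest difference of 0. Deposited flags of 0 or 1 mark dim, saturated and outlier spots.

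Of 180880 spots per array, 3440 control spots were left out, as were spots with an outlier flag. The Cy3 (tissue) over Cy5 (reference) ratios of the processed signals were put on the log2 scale and centred on the median of the autosomal probes, without loess or quantile normalization. The median was taken in each window of 1 Mb that held 5 or more probes. The brightness trend was a lowess fit with a fraction of 0.3. The number of arrays limits the precision, and no test was made. The windows named were the 3 highest and 3 lowest of each chromosome and array, the 3 largest differences in each direction and the 5 at each end. The intervals named were those of the highest scores and the longest gain and loss, and further ones were chosen after their values were seen. The chromosomes, lists and settings were chosen with earlier results of these data known.

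Alternatives were the deposited log ratio, normexp with an offset of 50 on the median signals, the mode as centre, all flagged spots kept, only probes well above background, the trend removed, windows of 5 Mb or of at least 20 probes, limits of 0.4 and 0.15, the opposite direction of the ratio, the limit on the mean after the search, a mean of at least 0.4, a score of 12 or more, intervals of 10 or more probes and the control array subtracted. A GC correction was not run, as probe sequences were not used here.

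Tools were R 4.3.3 (limma 3.58.1) and Python 3.11.15 (pandas 2.3.3, numpy 2.4.6, statsmodels 0.14.6, numba 0.67.0, matplotlib 3.10.9).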

Additional observations from a re-analysis of the deposited data

How the results depend on the processing

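No paired analysis was possible because each tissue has 1 array. For the medians, spreads, counts of windows and numbers of intervals 226 values were computed again. Of these 137 stayed within a set range, 78 moved with their sign kept and 11 took the other sign. For a median the range was its 95% interval over the windows in the first setting, although neighbouring windows are not independent. For an SD or a count it was 1.5 times the first value in either direction. A log2 ratio was limited by dim signals, with 75.8% of the chromosome 15 probes and 77.4% of the chromosome 16 probes well above background in the tumor channel. In what follows, values come for chromosome 15 and then for chromosome 16, and unless an alternative is said to set its own result by its construction, the cause of a change was not tested.

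With the brightness trend removed, the tumor medians became 0.0090 and 0.0028 and the window SDs 0.065 and 0.069, with 0 high and 0 low windows and 0 gains on both chromosomes. The control median of chromosome 15 turned to -0.0037, the control SD of chromosome 16 became 0.048, the median differences turned to -0.014 and -0.0089, and the control gains became 4 and 3. With reference over tissue every sign turned by construction, with tumor medians of -0.12 and -0.074, control medians of -0.033 and -0.028 and median differences of -0.042 and -0.025. The tumor then had 7 and 4 high windows, 20 and 9 low windows, 2 and 2 gains and 10 and 7 losses, and the control tissue 0 and 0 gains and 15 and 6 losses.

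With normexp on the median signals the tumor had 7 high windows on chromosome 15, 12 and 8 low windows and 9 and 6 losses. The control median of chromosome 15 became 0.078, the control SDs 0.14 and 0.15, the median difference of chromosome 15 0.0052, the control gains of chromosome 15 1 and the control losses 6 and 7. Centring on the mode gave control medians of 0.088 and 0.083 and median differences of -0.015 and -0.032. The deposited log ratio gave control medians of 0.0026 and 0, median differences of 0.071 and 0.065, 4 high tumor windows on chromosome 16 and 18 tumor gains on chromosome 15. With probes well above background only, there were 14 high tumor windows on chromosome 16, 4 tumor losses on chromosome 15 and 2 and 2 control gains.

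Windows of 5 Mb, which are fewer by construction, gave 1 and 1 high and 2 and 1 low tumor windows and a control SD of 0.057 on chromosome 15. A limit of 0.4 left 0 and 0 high and 2 and 1 low tumor windows, and a limit of 0.15 gave 58 and 25 high and 14 and 9 low ones. The limit on the mean applied after the search gave 0 and 0 gains and 1 and 1 losses in the tumor and 1 and 1 gains in the control tissue. A score of at least 12 gave 1 and 1 gains and 1 and 1 losses in the tumor and 0 and 1 gains in the control tissue, and a mean of at least 0.4 gave 9 control gains on chromosome 15. A score of at least 12 left a called control length of 0 Mb and 6.68 Mb, and with the brightness trend removed it was 0.604 Mb and 0.0899 Mb. With the control array subtracted there were 10 and 9 losses and, on chromosome 16, 3 gains. Outlier-flagged spots kept, at least 20 probes per window and at least 10 probes per interval moved none of these values out of the set range. The GC correction was not run.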
